A study of Mus musculus with 18 samples.

Results

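Kidneys taken 21 days (week 3) after unilateral ischemia and reperfusion (UIR) are compared here with kidneys taken 21 days after a sham operation. The members are the 6 libraries that the labels place at week 3, 3 of UIR and 3 of sham mice, out of 18 libraries in the study, and every gene of the deposited table that reached 1 FPKM in at least 3 of the 18 libraries. That rule used all 18 libraries and left 14716 of 20825 genes. UIR mice were C57BL/6 mice, labelled as aged 11 weeks, whose right renal pedicle was clamped for 45 minutes and then released while the left kidney was left intact. Sham mice of the same strain and labelled age had no clamping named. The other 12 libraries are UIR and sham kidneys of days 1 and 3, of which those of day 3 are used for comparison. The labels call the 3 libraries of a group biological replicates, and name neither the kidney that was sequenced nor the sex of the mice. FPKM, the unit of the authors' deposited values, is the number of fragments of a transcript scaled by its length and by the fragments mapped in the library.

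Closing and reopening the renal pedicle injures the proximal tubule first, the segment that reclaims most of the filtered solutes and relies on mitochondrial oxidation of fatty acids. Injured tubule cells can lose their transporters, proliferate and regain their identity, or stay in a state of incomplete repair in which they secrete chemokines and adhesion molecules. With an intact opposite kidney, the clamped kidney is commonly used to model the passage from acute injury to fibrosis, in which myofibroblasts deposit collagen and immune cells persist.

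The FPKM values of a library summed to between 4.883e+05 and 5.031e+05 in sham kidneys and between 4.242e+05 and 4.382e+05 in UIR kidneys. Between 12000 and 12259 genes reached 1 FPKM in a sham kidney and between 14043 and 14156 in a UIR kidney. Across genes, log2(FPKM + 1) correlated at Pearson r = 0.990 to 0.993 between sham kidneys, at 0.980 to 0.988 between UIR kidneys and at 0.683 to 0.777 between the groups. Genes are not independent replicates, so these r describe only how alike the libraries were. UIR replicate 3 stood apart from the other UIR kidneys most clearly in a small set of genes. Of 10593 genes with a mean of at least 5 FPKM in UIR kidneys, 40 had a standard deviation over 1 on the log2 scale among the 3 UIR libraries, and UIR replicate 3 was the farthest from their mean in 95.0% of these 40. Over all 10593 genes it was the farthest in 38.3%, UIR replicate 1 in 35.2% and UIR replicate 2 in 26.5%. Its r with sham kidneys was 0.683 to 0.704, against 0.745 to 0.777 for UIR replicates 1 and 2. With those 2 UIR kidneys its r was 0.982 and 0.980, against 0.988 between them. For the proximal tubule, thick limb and injury lists, values without UIR replicate 3 are also given below. The read depth of the libraries is unknown, because the table holds FPKM and no counts.

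Most of the transcriptome differed at week 3. In the limma fit, 11885 of 14716 genes (80.8%) passed an adjusted p of 0.05. Of these 8934 (60.7% of genes tested) were higher and 2951 (20.1%) were lower in UIR kidneys. At least 2-fold changes were called for 4336 genes upward and 1407 downward, and at least 8-fold changes for 587 and 294. For 84.3% of genes the 3 UIR values did not overlap the 3 sham values, with UIR above in 62.8% and below in 21.5%. The median log2 fold of all genes was 0.53, and this offset and the direction split depend on how libraries are scaled. With each library rescaled to TPM, that is to the same sum over all genes, 80.2% of the calls were higher and the median of all genes was 0.76. With median-of-ratios scaling 51.0% were higher (5650 higher, 5424 lower) and the median was 0.03, and with quantile normalization 49.2% were higher and the median was -0.01, against 75.2% and 0.53 as deposited. Folds of gene lists are therefore read against 0.53. Under both scalings that move this offset to near 0, each of the 28 lists of kidney and immune genes kept the sign of its median. Under TPM the glycolysis list did not. The tissue is bulk kidney, so fewer cells of a type and less RNA per cell cannot be told apart for any gene named below.

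**Figure D1:**
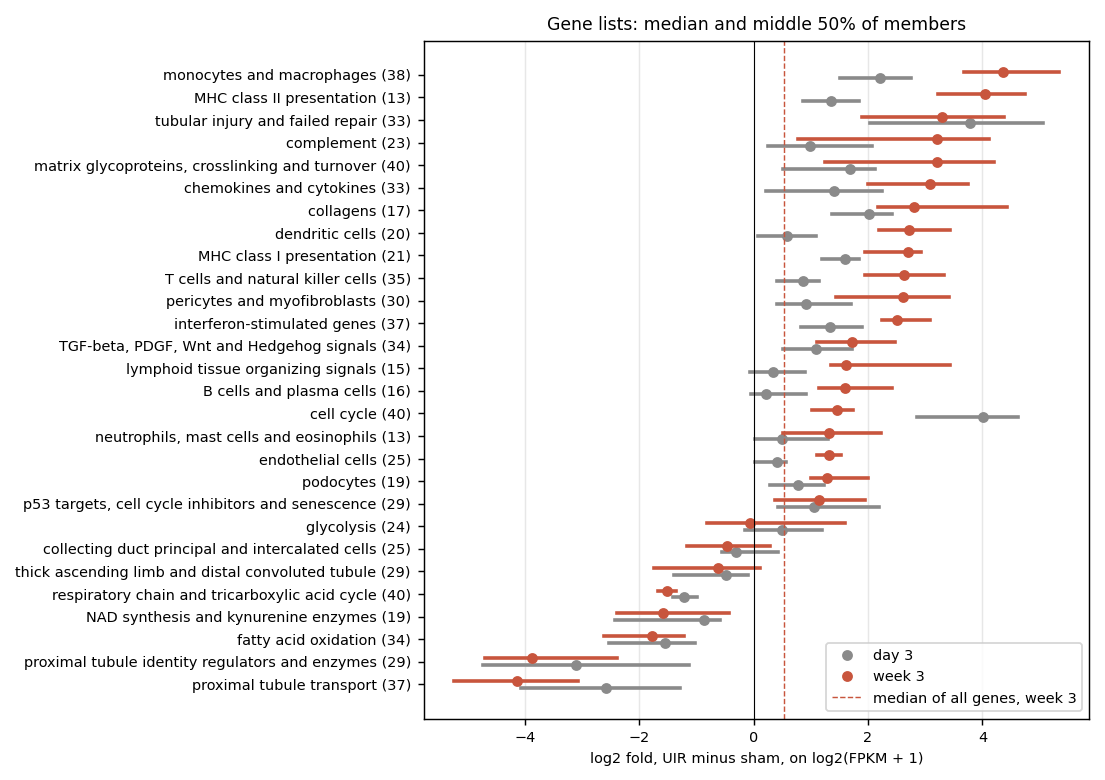
Median (point) and middle 50% (line) of the log2 folds of UIR over sham, on log2(FPKM + 1), for the members of each gene list that passed the expression filter (number in brackets), at week 3 (red) and day 3 (grey). Monocyte and macrophage genes have the highest median at week 3 (4.37) and proximal tubule transport genes the lowest (-4.13), and the dashed line marks the median of all genes at week 3 (0.53).

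The plot of list medians orders the 28 lists that describe kidney cells, metabolism, matrix and immunity. Lists of the proximal tubule and of mitochondrial metabolism lay lowest. Macrophage and MHC class II genes lay highest, followed by tubular injury, complement and matrix genes, while granulocyte (1.32), B and plasma cell (1.60) and lymphoid signal genes (1.62) lay about level with endothelial (1.31) and podocyte genes (1.28). The lists were written with earlier results of these data known, so their place is a description. Counts cover only members that passed the expression filter, which were 16 of 27 B and plasma cell genes, 15 of 25 lymphoid tissue signals, 13 of 24 granulocyte genes and 23 of 30 complement genes in the table. A low gene could pass through the UIR libraries alone, so a count of higher members in these and other lists of low genes is partly set by the filter.

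The most abundant transcripts changed rank. Kap, a kidney androgen-regulated protein of the proximal tubule, was the most abundant transcript of sham kidneys with 7.34% ± 0.455 of the FPKM sum (SD, n = 3), and ranked 40 in UIR kidneys with 0.191% ± 0.123. Gpx3, the secreted glutathione peroxidase of the proximal tubule, went from rank 2 (4.78% ± 0.259) to rank 16 (0.347% ± 0.175). Ass1 of arginine synthesis went from rank 4 to rank 537, the phosphate transporter Slc34a1 from rank 8 to rank 565 and the fatty acid hydroxylase Cyp4b1 from rank 7 to rank 947. In UIR kidneys the first rank was held by Cd74, the invariant chain of MHC class II molecules, which went from rank 414 (0.0361% ± 0.00276) to 1.11% ± 0.205. The second was Spp1, the secreted phosphoprotein osteopontin, from rank 133. The lipid carrier Apoe rose from rank 595 to 4, the calcification inhibitor Mgp from rank 1107 to 7, the macrophage lysozyme Lyz2 from rank 5728 to 9 and the chaperone clusterin, Clu, from rank 380 to 10. The 10 most abundant genes of a library took 17.42% to 18.66% of the FPKM sum in sham kidneys and 6.14% to 7.044% in UIR kidneys.

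**Figure D2:**
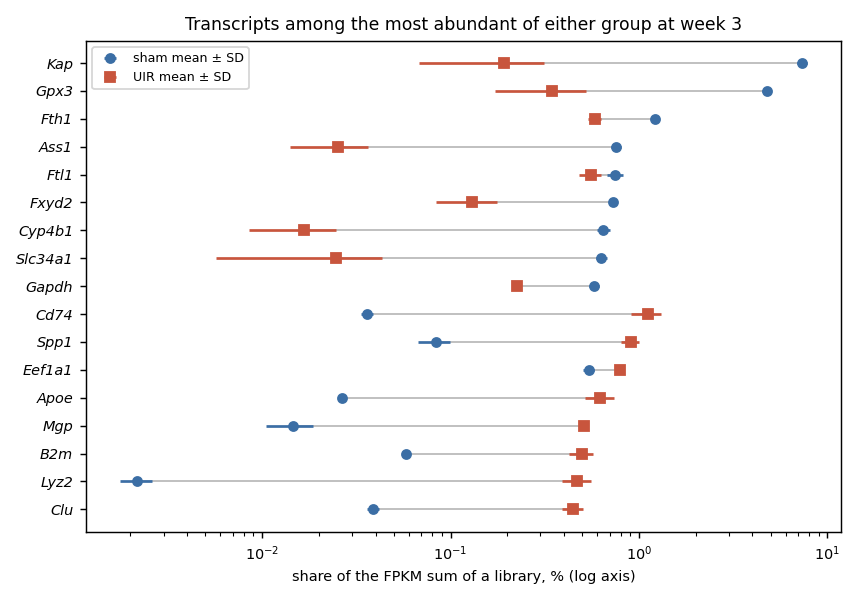
Share of the FPKM sum of a library, in percent on a log axis, for genes among the 10 most abundant of sham or of UIR kidneys at week 3, as mean ± SD of 3 libraries (blue circles sham, red squares UIR). Kap falls from 7.34% to 0.191%, and Cd74 rises from 0.0361% to 1.11%.

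As the plot of abundant transcripts shows, the ferritin subunits Fth1 and Ftl1 and the elongation factor Eef1a1 held ranks 5, 6 and 3 in the UIR kidneys, from ranks 3, 5 and 11 in sham kidneys. Fth1 had log2 fold -1.26 ± 0.17. Ftl1 fell with -0.63 ± 0.14, a call that was lost under quantile normalization (-0.17, limma adjusted p = 0.33). Eef1a1 rose with 0.36 ± 0.12 as deposited, was not called with only the 6 libraries of week 3 in the fit (limma adjusted p = 0.052) or with all 20825 genes (0.15), and turned to -0.26 under median-of-ratios scaling.

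Single genes were ranked where UIR and sham values did not overlap and the mean of both groups reached 5 FPKM, so the separation of these genes was set by the choice. The largest increases were genes of macrophages, of injured epithelium and of fibroblasts. In each sentence the values are FPKM of replicates 1, 2 and 3. Lyz2 (Entrez Gene 17105) was 9.35, 9.67 and 13.4 in sham kidneys and 1864, 1766 and 2482 in UIR kidneys (log2 fold 7.43 ± 0.37 SE, limma adjusted p = 5.5e-11), a ratio of mean FPKM of 189. Lcn2 (16819), the iron-carrier binding protein released by damaged tubules, was 1.08, 2.27 and 4.25 in sham and 446, 394 and 702 in UIR kidneys (7.24 ± 0.38, limma adjusted p = 7.6e-11). Gpnmb (93695), a transmembrane glycoprotein of lipid-laden macrophages, was 0.12, 0.07 and 0.07 in sham and 99.1, 130 and 141 in UIR kidneys (6.82 ± 0.28). All 3 UIR kidneys stood far above all sham kidneys for these genes, with UIR replicate 3 the highest.

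The other members of the 12 largest increases were Lyz1 (6.37), the alternatively activated macrophage product Retnla (6.08), the lysosomal protease Ctss (5.97), the monocyte chemokine Ccl8 (5.92), the macrophage elastase Mmp12 (5.87), complement C3 (5.61), the ribonuclease Ear2 (5.54), the lipid receptor Trem2 (5.54) and the collagen chain Col1a1 (5.53), as log2 folds with limma adjusted p between 3.9e-14 and 5.2e-09. Lyz1 and Lyz2, like Cyp2a4 and Cyp2a5, the Cyp4a12, Ccl21, Ly6c, Ear and class I H2-Q and H2-T genes, have near-identical copies between which the quantification may have divided reads.

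**Figure D3:**
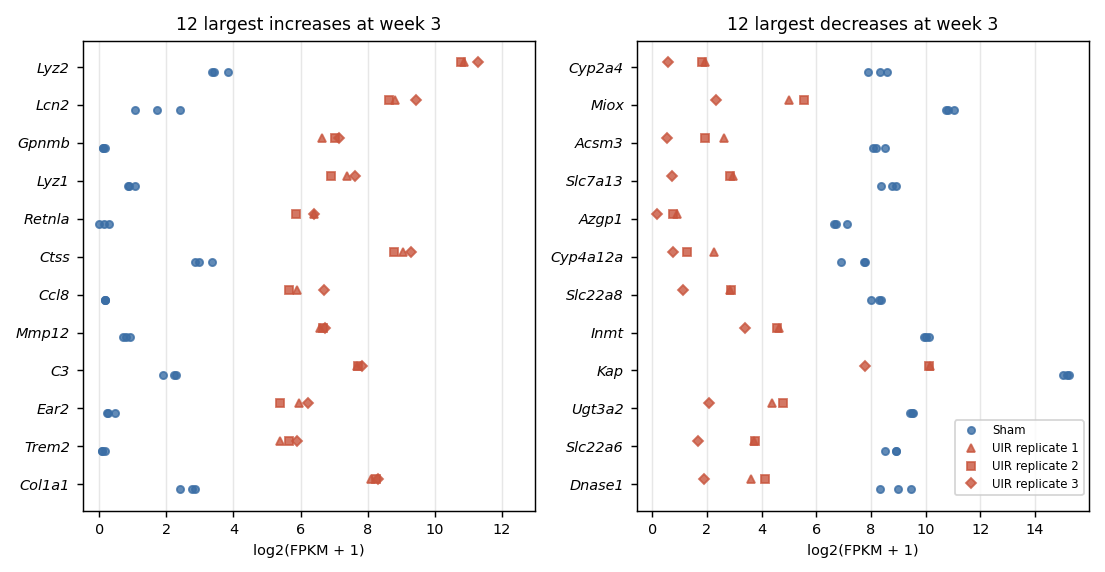
log2(FPKM + 1) of each library of week 3 for the 12 largest increases (left) and the 12 largest decreases (right), with sham libraries as blue circles and UIR replicates 1, 2 and 3 as red triangles, squares and diamonds. Genes were chosen among those without overlap between the groups, and UIR replicate 3 is the lowest library for each of the 12 decreases.

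The largest decreases were mostly transporters and enzymes known from the proximal tubule. Cyp2a4 (13086), a steroid hydroxylase, was 323, 235 and 382 FPKM in sham and 2.77, 2.49 and 0.50 in UIR kidneys (log2 fold -6.83 ± 0.27, limma adjusted p = 8.5e-12). Miox (56727), the first enzyme of inositol breakdown, was 1785, 1723 and 2104 in sham and 31.1, 45.4 and 4.05 in UIR kidneys (-6.57 ± 0.59, limma adjusted p = 3.7e-08). Groups were far apart for both, and UIR replicate 3 was the lowest. Acsm3 (-6.56), the amino acid transporter Slc7a13 (-6.51), Azgp1 (-6.21), Cyp4a12a (-6.03), the organic anion transporters Slc22a8 (-5.94) and Slc22a6 (-5.73), the methyltransferase Inmt (-5.83), Kap (-5.80), the glucuronosyltransferase Ugt3a2 (-5.75) and the nuclease Dnase1 (-5.72) followed, as the plot of the largest changes shows library by library.

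Proximal tubule transport genes were lower almost throughout. Of 37 members, 36 fell and 1 rose (the median log2 fold was -4.13, against 0.53 for all genes), where 20.1% of all genes tested fell. Slc34a1 (20505), the sodium-phosphate cotransporter of the brush border, was 3237, 2857 and 3252 FPKM in sham and 113, 181 and 21.4 in UIR kidneys (-5.33 ± 0.54, limma adjusted p = 1.4e-07). Slc5a2, the sodium-glucose transporter SGLT2, was 278, 255 and 286 in sham and 17.4, 31.4 and 3.93 in UIR kidneys (-4.26 ± 0.46, limma adjusted p = 3.0e-07). UIR kidneys were below sham kidneys without overlap for both genes, and UIR replicate 2 kept the most. The urate transporter Slc22a12 (-5.60), the organic anion transporter Slco1a1 (-5.55), the endocytic receptors Lrp2 (-4.53) and Cubn (-4.32), the sodium-proton exchanger Slc9a3 (-3.30) and the water channel Aqp1 (-2.98) fell as well. The transporters Slc5a1 (-1.03) and Slc7a8 (-0.64) fell least. The efflux pump Abcc4 was the member that rose, from 11.1, 14.9 and 9.94 to 16.3, 17.5 and 15.6 FPKM (0.45 ± 0.16, limma adjusted p = 0.015), but its sign turned with median-of-ratios scaling (-0.13) and with quantile normalization (-0.03). It was no longer called without sham replicate 1 (0.40, limma adjusted p = 0.05), sham replicate 3 (0.33, 0.082) or UIR replicate 2 (0.40, 0.05).

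The list summed to between 10354 and 11565 FPKM in sham kidneys and to between 241.1 and 821.5 in UIR kidneys. Without UIR replicate 3 its counts were the same and its median was -3.56. Slc34a1 was then at -4.43 ± 0.34 and Slc5a2 at -3.49 ± 0.28.

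Regulators and enzymes that define the proximal tubule were lower in 28 of 29 cases, with a median of -3.87 (-3.37 without UIR replicate 3). The share lower among all genes tested was 20.1%. Hnf4a (15378), the nuclear receptor that maintains proximal tubule identity, was 271, 307 and 283 FPKM in sham and 38.1, 46.2 and 18.2 in UIR kidneys (-3.13 ± 0.25, limma adjusted p = 7.5e-09). The bile acid receptor Nr1h4 (-3.07), Ppara (-2.87), Maf (-1.31), Esrra (-1.23) and the mitochondrial coactivator Ppargc1a (-0.62 ± 0.18, limma adjusted p = 0.0045) also fell, and the spread among these regulators was wide. Among enzymes, the gluconeogenic G6pc (-5.39), Fbp1 (-5.26) and Pck1 (-4.69), the aminoacylase Acy3 (-5.37) and the fructokinase Khk (-3.64) fell. The vitamin D activating Cyp27b1 had -0.71 and was not called as deposited, but was lower under median-of-ratios scaling (-1.13, limma adjusted p = 0.024).

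Transcripts of mitochondrial metabolism were lower as a whole, where 20.1% of all genes tested were lower. Of 34 fatty acid oxidation genes 32 fell and 0 rose (median -1.78), and of 40 genes of the respiratory chain and the tricarboxylic acid cycle 40 fell (median -1.52). The range differed between them. Medium-chain acyl-CoA synthetases (Acsm3 -6.56, Acsm2 -5.05), the omega-hydroxylase Cyp4a10 (-5.34) and the peroxisomal Ehhadh (-4.66) fell most. Smaller decreases were those of the carnitine transferases Cpt2 (-2.34) and Cpt1a (-1.52) and the trifunctional protein subunits Hadhb (-0.97) and Hadha (-0.28). Of these, Cpt2 still fell more than the list median. The call of Hadha was lost with TPM (-0.09, limma adjusted p = 0.49), under quantile normalization (-0.20, 0.11) and without sham replicate 2, sham replicate 3, UIR replicate 1 or UIR replicate 3 (-0.28 to -0.25, limma adjusted p = 0.053 to 0.076). Pdk4, which restrains pyruvate oxidation, was not called (-0.09) but was lower under quantile normalization (-0.99, limma adjusted p = 0.0053). In the respiratory chain list the folds ran from -2.32 for the succinate-CoA ligase Suclg2 to -0.57 for citrate synthase, Cs. Uqcrfs1, the Rieske protein of complex III, was 194, 194 and 198 FPKM in sham and 47.9, 45.8 and 38.2 in UIR kidneys (-2.13 ± 0.11, limma adjusted p = 8.0e-11). The spread between replicates was small beside this difference.

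Transcripts of NAD synthesis and kynurenine enzymes were mostly lower as well, where 20.1% of all genes tested were lower. Of 19 genes 15 fell and 3 rose (median -1.59), with Aadat (-4.77), Acmsd (-4.45), Haao (-4.09), Kmo (-3.07) and Qprt (-2.20) of the kynurenine route among the lower ones and the salvage enzyme Nampt at -0.52. The rising members were consumers of NAD or nicotinamide, namely the methyltransferase Nnmt (2.22), the hydrolase Cd38 (1.83) and Parp1 (0.62), whose call was lost with median-of-ratios scaling (0.03, limma adjusted p = 0.78).

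Glycolysis had no single direction, with 9 of 24 genes higher, 11 lower and a median of -0.06, against 0.53 for all genes. With TPM the median was 0.08, against 0.76 for all genes. Under median-of-ratios scaling and quantile normalization, which move the offset of all genes to near 0, it was -0.54 and -0.32. Isoforms stood against each other. The abundant Gapdh (-1.54), Pgk1 (-1.52), Tpi1 (-1.41), Ldha (-1.01) and Eno1 (-0.94) fell, whereas the hexokinases Hk3 (3.06), Hk2 (2.72) and Hk1 (1.16), the neuronal-type enolase Eno2 (2.61), the lactate exporter Slc16a3 (2.07) and the regulator Pfkfb3 (1.95) rose. Hk2 was 0.09, 0.13 and 0.06 FPKM in sham and 5.55, 5.53 and 7.79 in UIR kidneys, with no overlap.

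Distal segments were less affected than the proximal tubule in their medians. In the thick ascending limb and distal convoluted tubule list 17 of 29 genes fell and 4 rose (median -0.63). Of all genes tested 20.1% fell and 60.7% rose. Without UIR replicate 3, 15 fell and 7 rose (median -0.51). Umod, the uromodulin of the thick limb, was 656, 552 and 627 FPKM in sham and 421, 432 and 316 in UIR kidneys (-0.66 ± 0.17, limma adjusted p = 0.0017), a decrease without overlap but small. The thick-limb cotransporter Slc12a1 was not called (0.60) but was higher without UIR replicate 3 (0.93, limma adjusted p = 0.012) and with TPM (0.79, 0.037), while its distal relative Slc12a3 fell (-3.01 ± 0.30). The largest decreases were the calcium buffer Calb1 (107, 168 and 120 in sham, 4.18, 2.11 and 1.64 in UIR kidneys, -5.22 ± 0.27), the growth factor Egf (-4.77 ± 0.47), parvalbumin Pvalb (-4.61), which was listed at 0 in 2 UIR kidneys, and the anti-ageing co-receptor Kl, klotho (226, 241 and 222 in sham, 14.1, 15.2 and 4.68 in UIR kidneys, -4.37 ± 0.29). The paracellular magnesium channel claudins Cldn19 (1.45) and Cldn16 (1.39) rose, as did Trpm6 (1.13), which was not called under quantile normalization (0.34, limma adjusted p = 0.16).

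In the collecting duct list 14 of 25 genes fell and 5 rose (median -0.47), against 20.1% and 60.7% of all genes tested. Both medians of the distal nephron lay lower under median-of-ratios scaling, at -1.24 and -1.04. Aqp2, the vasopressin-regulated water channel, was 38.6, 72.7 and 44.7 FPKM in sham and 4.16, 5.18 and 1.82 in UIR kidneys (-3.51 ± 0.27, limma adjusted p = 5.6e-09). Aqp3 (-2.30), the intercalated cell exchangers Slc26a4 (-1.54) and Slc4a1 (-1.47) also fell. The transcription factors Gata3 of principal cells (1.12) and Foxi1 of intercalated cells (0.98) rose, Foxi1 without a call under median-of-ratios scaling (0.38, limma adjusted p = 0.10).

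Glomerular and vascular genes were mostly higher, in a comparison in which 60.7% of all genes were. Of 19 podocyte genes 16 rose and 2 fell (median 1.28, or 0.76 under median-of-ratios scaling), and of 25 endothelial genes 23 rose and 1 fell (median 1.31, or 0.78). The slit diaphragm gene Nphs1 (1.27) was among the higher ones, whereas the basement membrane chains Col4a4 (-0.90) and Col4a3 (-0.61) fell. Tcf21, a mesenchymal and podocyte transcription factor, rose most (3.23). Among endothelial genes Pecam1 (1.59), Cdh5 (1.52) and the leukocyte adhesion receptor Selp (2.05) rose. Selp was 0.06, 0.08 and 0.08 FPKM in sham and 3.21, 2.84 and 4.47 in UIR kidneys. The receptor Kdr was not called (0.43), though it was without sham replicate 2 (0.70, limma adjusted p = 0.0083) and with TPM (0.64, 0.021). Tmem252 fell (-3.22 ± 0.24). The summed proximal tubule transport genes were lower in the same libraries, as given above, and the part of that in these increases was not tested.

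Genes of injured and incompletely repaired tubules were higher, 29 of 33 with 3 lower (median 3.29), where 60.7% of all genes tested were higher. Havcr1 (171283), the phosphatidylserine receptor KIM-1, was 0.74, 0.56 and 0.66 FPKM in sham and 45.5, 61.6 and 15.0 in UIR kidneys (4.44 ± 0.56, limma adjusted p = 1.9e-06). UIR replicate 3, in which the proximal tubule transporters were lowest, also had the least Havcr1. Vcam1 (22329), the adhesion molecule of failed-repair tubules that also marks endothelium, was 1.72, 2.38 and 1.64 in sham and 109, 109 and 103 in UIR kidneys (5.22 ± 0.13, limma adjusted p = 1.5e-13), with little spread among UIR kidneys. Krt19 (5.50), S100a6 (4.68), ceruloplasmin Cp (4.63), Cd44 (4.47), Vim (4.37), Sox4 (3.52), Sox9 (3.29), Spp1 (3.25) and Krt20 (2.36) rose. The lower members were the fibrinogen chains Fga (-1.47) and Fgg (-1.13) and the integrin Itgb6 (-0.72). Both fibrinogen calls were lost with a pseudocount of 5 and without UIR replicate 3 (Fga -1.08, limma adjusted p = 0.058, and Fgg -0.72, 0.17), and that of Fgg also without sham replicate 1 (-1.02, 0.088) or sham replicate 3 (-1.18, 0.053). Without UIR replicate 3 the list had 29 higher and 1 lower.

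Fibroblast and matrix genes rose nearly throughout, in a comparison in which 60.7% of all genes tested rose. Of 30 pericyte and myofibroblast genes 29 rose and 1 fell (median 2.60), all 17 collagen genes that passed the filter of 21 on the list rose (median 2.80), and of 40 matrix glycoprotein, crosslinking and turnover genes 37 rose and 1 fell (median 3.20). Col1a1 (12842), a chain of collagen I, was 4.34, 6.26 and 5.82 FPKM in sham and 273, 303 and 316 in UIR kidneys (5.53 ± 0.42, limma adjusted p = 5.2e-09). Col3a1 (5.36), Col1a2 (4.86), Col6a1 (4.43) and Col6a2 (4.42) followed. Acta2 (11475), the smooth muscle actin of myofibroblasts, was 8.31, 9.56 and 9.68 in sham and 80.7, 87.3 and 83.0 in UIR kidneys (3.06 ± 0.23, limma adjusted p = 4.5e-09). All UIR kidneys stood together, far above the sham kidneys. Pdgfra (3.40) and Pdgfrb (2.74), the fibroblast and pericyte receptors, and Dcn (4.18), Dpt (4.86) and Mgp (4.95) rose. Renin, Ren1, was the falling member with 101, 94.2 and 82.5 in sham and 27.3, 62.6 and 17.8 in UIR kidneys (-1.53 ± 0.42, limma adjusted p = 0.0034).

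Matrix turnover involved both proteases and inhibitors. Mmp12 (5.87), Mmp2 (5.06), Mmp7 (4.81) and Mmp14 (4.58) rose beside the protease inhibitor Timp1 (5.50), while Timp3 fell from 686, 571 and 703 to 230, 239 and 205 FPKM (-1.53 ± 0.14). Mmp7 (17393) was 0.14, 0.07 and 0.07 in sham and 19.2, 19.7 and 67.7 in UIR kidneys, highest in UIR replicate 3. The matrix glycoprotein Fn1 (4.50 ± 0.22), the crosslinker Lox (4.14) and elastin, Eln (4.26), rose, and the collagen prolyl hydroxylase subunits P4ha1 (0.04) and P4ha2 (0.07) were not called as deposited and were lower under median-of-ratios scaling (-0.54, limma adjusted p = 0.0076, and -0.48, 0.022).

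Of 34 genes for TGF-beta, PDGF, Wnt and Hedgehog signals 31 rose and 1 fell (median 1.72), where 60.7% of all genes tested rose. All 3 TGF-beta ligands rose, Tgfb1 (7.81, 9.40 and 8.14 FPKM in sham, 74.5, 80.8 and 93.8 in UIR kidneys, 3.15 ± 0.15), Tgfb3 (2.69) and Tgfb2 (2.61), as did the receptors Tgfbr2 (2.02) and Tgfbr1 (1.68). The TGF-beta induced gene Tgfbi (3.85), the ligand Wnt4 (3.31) and the Wnt target Axin2 (0.13, 0.23 and 0.19 in sham, 12.3, 13.1 and 18.3 in UIR kidneys, 3.70 ± 0.12) were higher. Bmp7, an antifibrotic ligand of the tubule, fell (-1.08 ± 0.19), and Ihh (-0.14) and Hbegf (0.09) were not called, Ihh being lower under median-of-ratios scaling (-0.68, limma adjusted p = 0.03).

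Macrophage genes formed the upper end of the comparison, in which 60.7% of all genes tested rose. Of 38 monocyte and macrophage genes 36 rose and 0 fell (median 4.37), and their FPKM summed to between 502.1 and 569 in sham and between 12215 and 17175 in UIR kidneys. Adgre1 (13733), the F4/80 antigen, was 1.00, 0.62 and 0.83 FPKM in sham and 40.5, 36.8 and 44.5 in UIR kidneys (4.52 ± 0.24, limma adjusted p = 9.1e-11). Cd68 (5.42), the C1q chains C1qa (5.39), C1qb (5.22) and C1qc (5.42), the mannose receptor Mrc1 (4.23), the fractalkine receptor Cx3cr1 (4.19) and the monocyte receptor Ccr2 (4.19) rose together. Arg1 had 0.61, a call lost without sham replicate 1, sham replicate 3, UIR replicate 1 or UIR replicate 3 (0.53 to 0.61, limma adjusted p = 0.063 to 0.096) and under quantile normalization (0.12, 0.65). Chil3 (0.35) and Folr2 (-0.11) were not called, and Folr2 was lower under median-of-ratios scaling (-0.52, limma adjusted p = 0.033).

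Of 21 dendritic cell genes 20 passed the filter, and these rose (median 2.72), where 60.7% of all genes tested did. Itgax, the CD11c integrin, was 0.99, 1.35 and 1.09 FPKM in sham and 51.9, 42.0 and 60.9 in UIR kidneys (4.6 ± 0.16). The cross-presenting subset markers Xcr1 (2.25) and Clec9a (2.71), Cd209a (3.40) and the maturation marker Ccr7 (2.37) rose as well, as did the T cell attractants Ccl17 (4.14) and Ccl22 (3.92).

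Lymphocyte genes that passed the expression filter were mostly higher in UIR kidneys. Of 39 T and natural killer cell genes written down, 35 passed. Of those, 34 rose and 1 fell (median 2.63), where 60.7% of all genes tested rose. The list summed to only 34.06 to 35.91 FPKM in sham kidneys. Low members could pass through the UIR libraries alone, so this count is partly set by the filter. A stricter filter kept 20 members, of which 19 rose and 1 fell (median 3.03). Cd3e (12501), of the T cell receptor complex, was 0.31, 0.27 and 0.49 FPKM in sham and 18.4, 15.1 and 22.2 in UIR kidneys (3.84 ± 0.34, limma adjusted p = 2.5e-08). Helper and cytotoxic lineage genes rose, Cd4 (3.84), Cd8b1 (3.59) and Cd8a (2.96), and so did the regulatory factor Foxp3 (2.06), the inhibitory receptors Lag3 (2.46), Ctla4 (1.97) and Pdcd1 (1.67) and the granzyme Gzmk (2.83).

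Of 27 B and plasma cell genes written down, 16 passed the filter and those 16 rose (median 1.60), where 60.7% of all genes tested did. Cd79a (12518), of the B cell receptor, was 0.58, 1.04 and 0.91 FPKM in sham and only 2.95, 2.62 and 3.68 in UIR kidneys (1.15 ± 0.13, limma adjusted p = 6.7e-07). Under quantile normalization it was not called (0.23, limma adjusted p = 0.13), and 11 of the 16 were higher. The immunoglobulin joining chain Jchain had 2.46, 3.02 and 2.94 in sham and 48.2, 32.4 and 67.9 in UIR kidneys (3.67 ± 0.28). Of 15 signals that organize lymphoid tissue 14 rose and 0 fell (median 1.62), among them the B cell survival factor Tnfsf13b (4.88), lymphotoxin Ltb (4.57), Ccl19 (3.98), Ccl21a (2.99) and Cxcl13 (1.5). Ccl19 was 3.49, 4.30 and 3.81 in sham and 81.2, 61.4 and 87.0 in UIR kidneys.

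Granulocyte genes were at low levels. Of 13 neutrophil, mast cell and eosinophil genes 8 rose and 1 fell (median 1.32), a share of higher genes near the 60.7% of all genes, and the list summed to at most 115.3 FPKM in a UIR kidney. S100a9 was 1.88, 0.77 and 0.74 FPKM in sham and 5.86, 9.53 and 29.9 in UIR kidneys (2.66 ± 0.52, limma adjusted p = 2.1e-04), with UIR replicate 3 the highest. The neutrophil surface gene Ly6g fell (-1.41 ± 0.15).

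Antigen presentation genes were higher, in a comparison in which 60.7% of all genes tested were. All 13 MHC class II genes rose (median 4.05), from a sum of 399.9 to 465.9 FPKM in sham to 8555 to 12543 in UIR kidneys, and in each of the 13 UIR replicate 3 was the highest and UIR replicate 2 the lowest UIR kidney. H2-Aa (14960), the alpha chain of the class II molecule, was 58.5, 69.2 and 64.5 FPKM in sham and 1836, 1498 and 2202 in UIR kidneys (4.81 ± 0.30, limma adjusted p = 4.8e-10). H2-Eb1 (14969), a beta chain, was 29.8, 33.8 and 35.2 in sham and 1013, 763 and 1155 in UIR kidneys (4.83 ± 0.30, limma adjusted p = 4.5e-10). H2-Ab1 (4.55), the loading subunits H2-DMb2 (4.07) and H2-DMa (4.05) and Ciita (3.44), the master coactivator of class II genes, rose with them. Class II promoters carry conserved boxes, of which the Y box binds the factor NF-Y. The 250 bases upstream of the annotated starts of the 2 chains above follow, from RefSeq on GRCm38.p6. Only windows that hold the box could be shown, and these chains are among the most abundant class II transcripts of UIR kidneys. Capitals mark the Y box CTGATTGG. The H2-Aa window is chr17:34287824-34288073 on the minus strand, and the H2-Eb1 window is chr17:34305617-34305866 on the plus strand.
H2-Aa: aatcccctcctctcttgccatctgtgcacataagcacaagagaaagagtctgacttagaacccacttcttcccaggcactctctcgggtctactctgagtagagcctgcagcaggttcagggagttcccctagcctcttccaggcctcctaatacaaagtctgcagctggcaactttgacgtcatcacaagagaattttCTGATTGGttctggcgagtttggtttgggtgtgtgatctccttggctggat
H2-Eb1: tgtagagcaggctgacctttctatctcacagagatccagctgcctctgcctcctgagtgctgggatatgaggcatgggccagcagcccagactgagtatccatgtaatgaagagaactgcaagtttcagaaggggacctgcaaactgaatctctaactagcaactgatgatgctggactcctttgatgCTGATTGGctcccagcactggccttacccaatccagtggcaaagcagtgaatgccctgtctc
The box begins 51 bases before the start in H2-Aa and 62 bases before it in H2-Eb1. Searched on both strands in the 250 bases, CTGATTGG was in 4 of the 10 class II genes that matched the promoter table (40.0%), namely H2-Aa, H2-Eb1, H2-Eb2 and H2-Oa, and in 6.1% of the 11448 tested genes with an entry. A match is a description of the letters and not of binding.

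All 21 MHC class I genes rose (median 2.69), where 60.7% of all genes tested did. The immunoproteasome subunits Psmb8 (3.70) and Psmb9 (3.59), the peptide transporter Tap1 (3.28), the heavy chain H2-K1 (96.0, 90.9 and 108 FPKM in sham, 914, 736 and 920 in UIR kidneys, 3.11 ± 0.21), the light chain B2m (2.89) and the class I coactivator Nlrc5 (3.00) were among them. H2-T22 rose least (0.48), and its sign turned under median-of-ratios scaling (-0.13).

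Of 37 interferon-stimulated genes 36 were called higher and 0 lower (median 2.51), against 60.7% and 20.1% of all genes tested. Cxcl10 (15945), a T cell chemokine, was 3.54, 2.30 and 3.20 FPKM in sham and 52.3, 36.5 and 47.1 in UIR kidneys (3.53 ± 0.33, limma adjusted p = 4.7e-08). Gbp2 (14469), an interferon-induced GTPase, was 3.33, 3.62 and 3.92 in sham and 49.7, 39.0 and 56.1 in UIR kidneys (3.40 ± 0.50, limma adjusted p = 9.4e-06). Cxcl9 (3.72), Oasl2 (3.67), Zbp1 (3.48), Irf7 (3.23) and Irf1 (3.08) rose, and Oas3 was not called (-0.08) but was lower under median-of-ratios scaling (-0.58, limma adjusted p = 0.0029). The interferon-stimulated response element, bound by interferon regulatory factors, was searched on both strands as GAAA, then any 2 bases, then GAAA. Only windows that hold the element could be shown. Those of the 2 genes first described are given, with the element in capitals, Cxcl10 at chr5:92348890-92349139 on the minus strand and Gbp2 at chr3:142620413-142620662 on the plus strand of GRCm38.p6.
Cxcl10: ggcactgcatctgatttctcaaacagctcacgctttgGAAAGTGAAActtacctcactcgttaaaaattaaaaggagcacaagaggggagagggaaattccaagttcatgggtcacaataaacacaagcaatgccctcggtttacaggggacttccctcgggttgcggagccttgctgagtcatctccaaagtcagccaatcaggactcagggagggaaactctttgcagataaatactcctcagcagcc
Gbp2: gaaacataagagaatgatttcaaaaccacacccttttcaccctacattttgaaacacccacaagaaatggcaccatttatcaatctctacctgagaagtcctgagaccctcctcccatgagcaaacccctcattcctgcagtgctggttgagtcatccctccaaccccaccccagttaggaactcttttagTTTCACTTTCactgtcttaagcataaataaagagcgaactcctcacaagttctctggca
In Cxcl10 the element begins 213 bases before the start. In Gbp2 it lies on the opposite strand, with its first base 59 bases before the start. The element was in 15 of 27 listed genes with a promoter entry (55.6%) and in 3.4% of the tested genes with one. Oas3, which was not called, also holds it. The 4 genes shown were chosen after their values were seen. A further motif, whose name is not reported here, was searched in the 2 proximal tubule lists and was in 0 of 31 and 0 of 22 promoters, and in 0.122% of the tested genes.

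Among 33 chemokines and cytokines, 30 were higher and 2 lower in UIR kidneys (median 3.09), against 60.7% and 20.1% of all genes tested. Ccl2 (20296), the monocyte attractant, was 0.41, 0.17 and 0.81 FPKM in sham and 32.2, 39.6 and 25.4 in UIR kidneys (4.51 ± 0.30, limma adjusted p = 9.0e-10). Ccl8 was 0.13 in each sham kidney and 58.5, 49.95 and 104 in UIR kidneys. Ccl6 (5.14), Cxcl5 (4.68), Ccl5 (4.47), Il33 (3.94), Csf1 (3.74), Il1b (3.29) and Tnf (3.03) rose as well. Ccl25 (-1.03) and Il15 (-0.55) fell.

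Of 23 complement genes 19 rose and 2 fell (median 3.21, or 16 and 4 with a median of 2.71 under median-of-ratios scaling). As deposited, 60.7% of all genes tested rose and 20.1% fell. C3 (12266) was 2.74, 3.86 and 3.68 FPKM in sham and 203, 209 and 228 in UIR kidneys (5.61 ± 0.21, limma adjusted p = 6.0e-12). The inhibitor Serping1 (4.53), the terminal component C7 (4.24) and the anaphylatoxin receptors C3ar1 (3.98) and C5ar1 (3.21) rose. Factor B, Cfb, fell from 209, 203 and 222 to 52.95, 54.6 and 45.8 (-2.03 ± 0.13, limma adjusted p = 8.3e-10), and C8a fell too (-2.37).

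Cell cycle transcripts were still above sham, in a comparison in which 60.7% of all genes tested were. Of 40 cell cycle genes 39 rose and 0 fell (median 1.47, or 0.65 under quantile normalization, where 28 rose and 1 fell). Mki67 (17345), the proliferation antigen, was 0.34, 0.60 and 0.29 FPKM in sham and 5.99, 5.75 and 6.47 in UIR kidneys (2.33 ± 0.11, limma adjusted p = 3.7e-11). Mcm3 of DNA replication (2.49) and the topoisomerase Top2a (2.41) rose most, and cyclin D1, Ccnd1, was not called (-0.38) but was lower under median-of-ratios scaling (-0.99, limma adjusted p = 0.0023) and with only the 6 libraries of week 3 (-0.38, 0.033). Inhibitors of the cycle were higher at the same time. Cdkn1a (12575), the p21 inhibitor, was 3.43, 5.21 and 3.90 in sham and 66.9, 68.9 and 82.7 in UIR kidneys (3.84 ± 0.26, limma adjusted p = 1.1e-09). Cdkn2b (3.12) and Cdkn2a (1.69), both linked to senescence, rose. Altogether 24 of 29 genes on the list of p53 targets, cycle inhibitors and senescence rose and 4 fell (median 1.14, or 17 and 6 with a median of 0.68 under median-of-ratios scaling). The lysosomal galactosidase Glb1, whose activity is a common senescence stain, fell (-1.27 ± 0.12).

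To ask where week 3 differed from the earlier response, the effect at week 3 was compared with that at day 3, each against its own sham group, so that the 2 effects share no library. At day 3, 11104 genes (75.5%) were called, of which 8470 (57.6%) were higher and 2634 (17.9%) lower. The effects differed for 6800 genes (46.2%), with 3834 (26.1%) more positive and 2966 (20.2%) more negative at week 3. In both comparisons 7255 genes were higher and 2114 lower, 1561 were called higher and 657 lower at week 3 alone. Of the genes called at day 3, 1035 higher and 402 lower ones were not called at week 3. Opposite calls were made for 180 genes that were higher at day 3 and lower at week 3, and for 118 with the reverse order. These last counts set calls side by side and carry no test of their own.

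**Figure D4:**
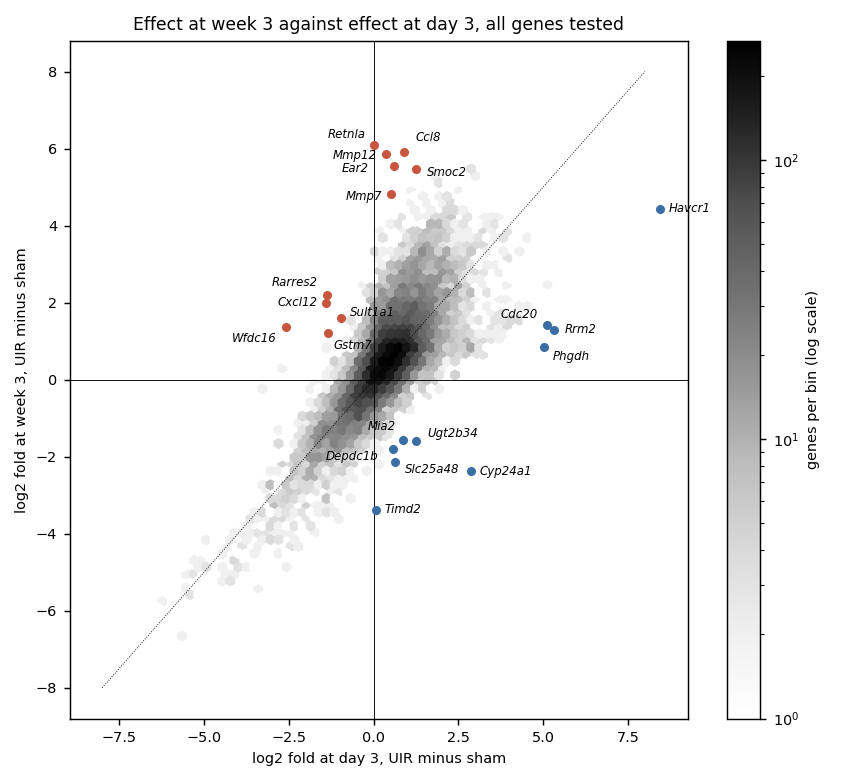
Log2 fold of UIR over sham at week 3 (vertical) against that at day 3 (horizontal) for the 14716 genes tested, as counts of genes per hexagon on a log colour scale, with the dotted line of equal effects. Named genes have the largest differences or opposite calls, in red where the effect was more positive at week 3 and in blue where it was more negative, with Retnla at 0.02 and 6.08 and Havcr1 at 8.44 and 4.44.

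The largest rises between the times were macrophage and matrix genes. Retnla had a mean of 0.113 FPKM in sham and 75.3 in UIR kidneys at week 3, with log2 fold 0.02 at day 3 and 6.08 at week 3 (difference 6.06, limma adjusted p = 1.4e-11). Mmp12 (difference 5.50), Ccl8 (5.00), Ear2 (4.93), Mmp7 (4.29) and Smoc2, a matricellular protein (4.21), also moved up. The largest moves down were Cyp24a1, which degrades active vitamin D (-5.24), the serine synthesis enzyme Phgdh (-4.17), the ribonucleotide reductase subunit Rrm2 (-4.04), Havcr1 (-4.0), the mitotic activator Cdc20 (-3.70) and the ferritin receptor Timd2 (-3.45). Phgdh was still higher than sham at week 3 as deposited (0.85 ± 0.23) but not under median-of-ratios scaling (0.29, limma adjusted p = 0.26) or quantile normalization (0.26, 0.29), and Rrm2 (1.30) was not called under quantile normalization (0.41, 0.078).

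The cell cycle list moved down in all 40 members (difference called lower for 40 of 40, medians 4.01 at day 3 and 1.47 at week 3). Mki67 went from 5.28 to 2.33 (difference -2.94). Most immune cell lists moved up, with 33 of 38 macrophage genes (medians 2.21 and 4.37), 31 of 35 T and natural killer cell genes (0.86 and 2.63), 20 of 20 dendritic cell genes (0.59 and 2.72), 13 of 16 B and plasma cell genes (0.22 and 1.60) and 12 of 13 class II genes (1.36 and 4.05) more positive at week 3, where 26.1% of all genes were. Granulocyte genes did not, with 3 of 13 more positive and 1 more negative. Adgre1 differed by 2.26, Cd3e by 2.40 and Cd79a by 1.52, the last from -0.37 at day 3. Collagens (13 of 17, none more negative) and pericyte and myofibroblast genes (25 of 30, 2 more negative) moved up too. Fn1 differed by 1.24 and Acta2 by 1.00, a call that was lost without sham replicate 2 of day 3 (0.77, limma adjusted p = 0.058) and that fell to 0.66 (0.04) without UIR replicate 3 of day 3.

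Of all genes 20.2% had a more negative effect at week 3 than at day 3. Of 37 proximal tubule transport genes 19 had a more negative effect at week 3 and 1 a less negative one (medians -2.58 and -4.13), and of 40 respiratory chain and tricarboxylic acid cycle genes 24 were more negative and 1 less (medians -1.21 and -1.52). The shift was smaller for fatty acid oxidation, with 11 of 34 more negative and 2 less (medians -1.55 and -1.78), and for proximal tubule regulators and enzymes, with 11 of 29 and 3 (medians -3.11 and -3.87). These list counts were not repeated without UIR replicate 3. Hnf4a went from -1.13 to -3.13 (difference -2.0 ± 0.35, limma adjusted p = 2.7e-04, and -1.61 without UIR replicate 3). The differences of Slc34a1 (-0.99, limma adjusted p = 0.31) and Slc5a2 (-1.48, 0.075) were not called. They were -0.09 and -0.71 without UIR replicate 3, and without UIR replicate 2 that of Slc5a2 was called (-2.07, limma adjusted p = 0.0069). Injury genes were mixed, with 11 of 33 more negative and 4 more positive. Havcr1 (8.44 and 4.44) and Krt20 (5.05 and 2.36) had smaller folds at week 3, and Lcn2 (6.08 and 7.24, limma adjusted p = 0.088) and Sox9 (4.34 and 3.29, 0.059) did not pass the threshold, although each did under some alternatives (Lcn2 without sham replicate 3 of week 3, 1.49, limma adjusted p = 0.033, and Sox9 with the 12 libraries of both times, -1.05, 0.0012). Vcam1 differed by -0.52 (limma adjusted p = 0.028), a call lost in 6 of the fits without 1 library, namely sham replicates 1 and 3 and UIR replicates 1 and 3 of day 3, sham replicate 2 and UIR replicate 3 of week 3 (-0.51 to -0.41, limma adjusted p = 0.053 to 0.076), and also under quantile normalization (-0.40, 0.072).

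Genes called in opposite directions are shown in the plot of the 2 effects. Lower at day 3 and higher at week 3 were the chemoattractant precursor Rarres2 (-1.38 and 2.19), the stromal chemokine Cxcl12 (-1.39 and 2.00), Wfdc16 (-2.59 and 1.36), the sulfotransferase Sult1a1 (-0.96 and 1.60) and the glutathione transferase Gstm7 (-1.34 and 1.21). Cxcl12 was 30.7, 33.2 and 32.0 FPKM in sham and 123, 142 and 127 in UIR kidneys of week 3. Higher at day 3 and lower at week 3 were Cyp24a1 (2.86 and -2.38), Slc25a48 (0.62 and -2.15), Depdc1b (0.56 and -1.81), Ugt2b34 (1.26 and -1.59) and Mia2 (0.88 and -1.58).

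The 3 UIR kidneys of week 3 differed mainly in tubular and immune genes. UIR replicate 3 was the lowest UIR kidney for 36 of 37 proximal tubule transport genes, 35 of 40 respiratory chain and tricarboxylic acid cycle genes and 26 of 29 thick limb and distal convoluted tubule genes, where it was the lowest for 39.9% of all genes tested. Against 31.4% of all genes, it was the highest for 31 of 38 macrophage, 27 of 35 T and natural killer cell, 19 of 20 dendritic cell and 35 of 40 cell cycle genes. UIR replicate 2 was the lowest UIR kidney for 29 of 38 macrophage and 30 of 35 T and natural killer cell genes, and for 29.0% of all genes. The widest ranges were in tubular enzymes. Akr1c21, a steroid dehydrogenase, was 48.3, 63.8 and 5.38 FPKM in the UIR kidneys against 1265, 1036 and 1199 in sham kidneys, and Hsd3b4 was 10.5, 16.2 and 0.70 against 79.4, 80.2 and 113. With 3 kidneys this order is a description and was not tested.

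**Figure D5:**
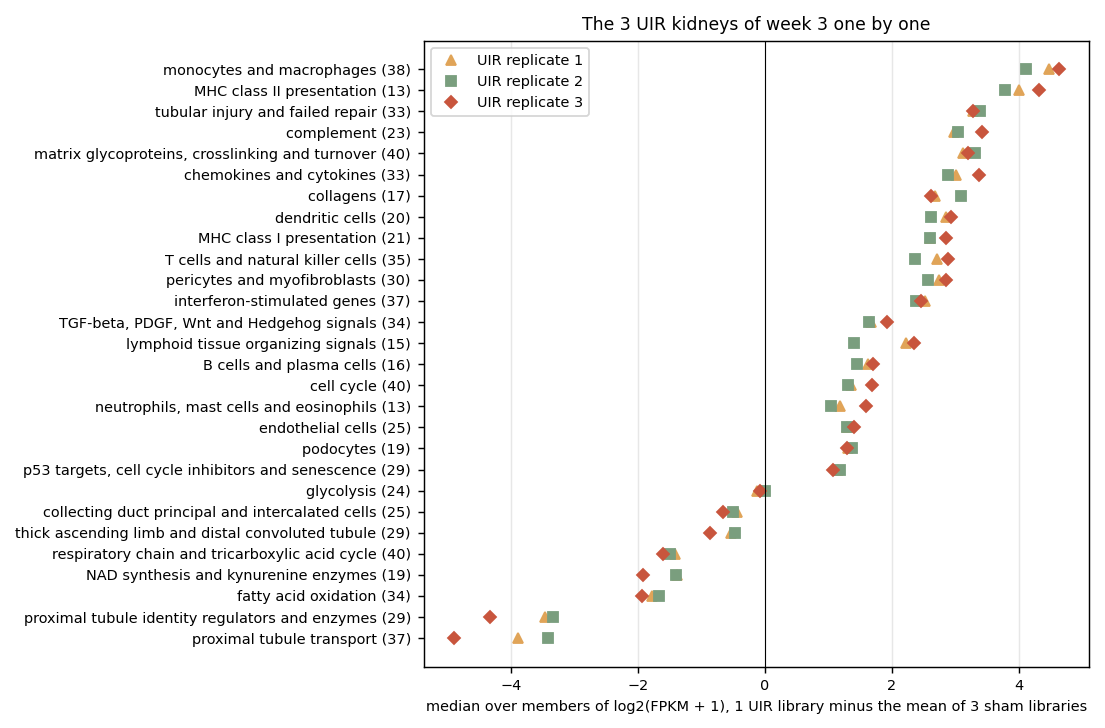
Median over the members of each list of log2(FPKM + 1) in 1 UIR kidney of week 3 minus the mean of the 3 sham kidneys, with UIR replicates 1, 2 and 3 as triangles, squares and diamonds and the number of members in brackets. UIR replicate 3 is the lowest for proximal tubule transport (-4.90, against -3.89 and -3.41) and the highest for monocytes and macrophages (4.64, against 4.48 and 4.12).

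In the plot of single UIR kidneys the order of the lists was much the same in all 3, and the kidneys were widest apart for the proximal tubule. Collagens had no such order, with medians of 2.69, 3.10 and 2.62 for UIR replicates 1, 2 and 3.

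Few genes were called between the sham kidneys of week 3 and those of day 3. By limma with adjustment 5 of 14716 genes (0.034%) differed, of which 2 (0.0136%) were higher and 3 (0.0204%) lower at week 3. These were Cyp4a14 (-3.39), Krt7 (-0.73), Usp6nl (0.66), Fchsd1 (0.80) and Snord34 (-2.23). Cyp4a14 is on the fatty acid oxidation list and Krt7 on the injury list, so their sham shifts enter the week 3 minus day 3 effects. At an unadjusted limma p under 0.05 there were 2284 genes. With 3 libraries a group, few adjusted calls do not show that the sham groups were alike. With the sham libraries of both times as the control, 9202 genes were higher and 3058 lower at week 3.

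Genes of tissues next to the kidney and of hormone status were looked at beside these results. Of 14 androgen-dependent kidney genes 13 fell and Gusb rose (1.32), with sums of 35393 to 40739 FPKM in sham and 353 to 1319 in UIR kidneys. These are proximal tubule genes as well, and the 2 sources of the change cannot be told apart here. Y-linked Eif2s3y was between 20.3 and 31.8 FPKM in all 6 kidneys. The hemoglobin genes Hba-a1 (-0.19), Hbb-bs (-0.18) and Hba-a2 (-0.36) were not called, and UIR replicate 3 had the least (240, 143 and 99.5 FPKM). Adipose genes summed to 45.79 to 102.2 FPKM in sham and 27.29 to 43.9 in UIR kidneys, adrenal genes to at most 3.03, muscle genes to at most 33.76 in sham and 4.25 in UIR kidneys, and urothelial genes to 0.69 to 0.84 in sham and 5.59 to 20.38 in UIR kidneys, where the 2 tested members Psca (2.58) and Upk1a (0.81, but -0.07 under quantile normalization) rose. Peripheral nerve genes summed to 6.58 to 8.68 in sham and 38.79 to 39.33 in UIR kidneys, with 4 of 5 higher (Mbp 2.26, Ngfr 2.09). Of 10 liver genes 5 fell, Ttr (-5.19) most, and Trf rose (3.80). The part of these neighbouring tissues in the results was not tested.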

How the data were processed

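Kidney RNA was sequenced in bulk, and the authors deposited 1 table of FPKM values for 18 libraries and 20825 genes. The submitters' processing notes name HISAT2 2.0.4, Bowtie2 2.2.5, RSEM 1.2.12 and mm9, without their roles. The lowest value above 0 is 0.01, no counts were used, and with the read depth unknown no interval for counting error was computed. Because FPKM is a share of each library, a large change in abundant transcripts moves every other gene. Gene symbols stored as dates, 27 in all, were restored.

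Values were tested as log2(FPKM + 1) with limma 3.58.1 in R 4.3.3 (6 group means over all 18 libraries, a mean-variance trend, two-sided, Benjamini-Hochberg adjustment over 14716 genes, threshold 0.05), a procedure checked on simulated data. In that simulation few genes changed and no library was shifted, so it does not cover a comparison in which most genes are called. Every log2 fold is on that scale, which understates changes of low genes, and ± beside it is a standard error. Fold comparisons across time are contrasts of the 4 groups of day 3 and week 3. P-values set a difference against the spread between libraries of the same group, pooled over all 6 groups and moderated across genes.

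The 37 lists hold 913 written genes, of which 904 were in the table and 796 were tested; 9 of them are checks on neighbouring tissues and hormone status. The comparison, its members and the lists were chosen with earlier results of these data known. Genes were named by rule: the 12 largest changes each way among separated genes with a mean of at least 5 FPKM, 20 markers, up to 5 members a list in its main direction and 3 against it, the 10 most abundant per group, the 6 largest differences between times each way, 5 opposite calls each way and the 8 widest spreads among UIR kidneys. Other named list members were chosen after their values were seen. Members that failed the expression filter are not described. Alternatives were other pseudocounts, filters, scalings, sample sets, library weights, a replicate block and leaving out each library. Promoters are RefSeq windows of GRCm38.p6, matched by gene. Some genes that these rules or lists hold are not reported here.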

Additional observations from a re-analysis of the deposited data

Results flagged for a closer look

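The effects at week 3 and day 3, each against its own sham group, differed for 6800 genes by the limma test of the difference itself (46.2% of genes tested), against 7760 at an unadjusted p under 0.05. Each value below is the week 3 minus the day 3 effect on the log2(FPKM + 1) scale, with a limma adjusted p under the threshold.

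Among the markers, the effect was more positive at week 3 for Cd3e (2.40), Adgre1 (2.26), Col1a1 (1.98), Cd79a (1.52), C3 (1.29), Fn1 (1.24) and Acta2 (1.00). It was more negative for Havcr1 (-4.0), Mki67 (-2.94), Krt20 (-2.69), Hnf4a (-2.0) and Vcam1 (-0.52).

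The largest positive differences were those of Retnla (6.06), Mmp12 (5.50), Ccl8 (5.00), Ear2 (4.93), Mmp7 (4.29) and Smoc2 (4.21). The largest negative ones were those of Cyp24a1 (-5.24), Phgdh (-4.17), Rrm2 (-4.04), Cdc20 (-3.70) and Timd2 (-3.45).

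Genes that were lower at day 3 and higher at week 3 were Wfdc16 (3.95), Rarres2 (3.58), Cxcl12 (3.39), Sult1a1 (2.56) and Gstm7 (2.55). Those that were higher at day 3 and lower at week 3 were Ugt2b34 (-2.85), Slc25a48 (-2.77), Mia2 (-2.46) and Depdc1b (-2.37), beside Cyp24a1.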

How the results depend on the processing

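Scaling had the largest effect at week 3. Higher calls numbered 5650 under median-of-ratios scaling and 5431 under quantile normalization, and lower calls 5424 and 5609. Leaving out 1 library gave 8558 to 8866 higher and 2757 to 2872 lower calls at week 3 and, for the difference from day 3, 3391 to 3812 higher and 2548 to 2884 lower. With a replicate block there were 8930 higher and 2946 lower calls, and for the difference 3704 and 2849. Same-numbered libraries did not deviate together (r 0.08, -0.065 and 0.053 at week 3), so the block is no paired analysis. The signs of Abcc4 (-0.13 and -0.03), Ddx3y (-0.18 and -0.10), P4ha1 (-0.54 and -0.49) and P4ha2 (-0.48 and -0.62) turned under median-of-ratios scaling and quantile normalization, those of Eif2s3y (-0.30), Eef1a1 (-0.26) and H2-T22 (-0.13) under the first only, and those of Kdm5d (-0.10), Plin4 (-0.34), Star (-0.34), Mylpf (-0.45) and Upk1a (-0.07) under the second only. Of 5503 values for 325 named genes, 5411 kept direction and side of the threshold, 47 lost the call, 29 gained it and 16 turned. The median of the glycolysis list turned with a pseudocount of 5 (0.00) and TPM (0.08), and ran from -0.13 to 0.03 without 1 library. Small check lists also turned. Y-linked genes had -0.24 and -0.10 under the 2 scalings, adipose genes -1.25 (stricter filter), -0.07 and -0.28, with -0.02 to 0.04 without 1 library, and the adrenal gene -0.34 (quantile). Muscle genes had -4.61 (stricter filter), -0.04 and -0.45, with -0.05 to 0.08 without 1 library. Erythroid genes had 0.02 (TPM), 0.06 (library weights) and 0.10 (both sham groups), with -0.51 to 0.28 without 1 library. The cause of these changes was not tested. Read depth, which limits low genes, is unknown.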

Other observations

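Gene families were grouped by symbol after the main values were seen and are described by counts without a test of the family, beside 60.7% of all genes higher and 20.1% lower. None of the ribosomal protein genes was on a list. Of 77 mitochondrial ribosomal protein genes 62 fell and 5 rose (median log2 fold -0.57, and 74 and 0 with a median of -1.15 under median-of-ratios scaling), with Mrpl12 (-1.79 ± 0.11) lowest. Of 80 cytosolic ribosomal protein genes 75 rose and 2 fell (median 0.80), but under median-of-ratios scaling only 26 rose and 5 fell (median 0.18), so that the size of this shift rests on the scaling. Of 37 complex I subunits 10 are members of the respiratory chain list, and of the other 27 tested 26 fell and 1 rose. Of 34 constitutive proteasome subunits 5 rose and 13 fell as deposited, and 0 and 33 under median-of-ratios scaling. Of 271 solute carriers 138 fell and 93 rose (median -0.37), and of the 229 on no list 101 fell and 91 rose. Of 13 glucuronosyltransferases 9 fell and 0 rose (median -1.59).

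Innate immune receptor genes that passed the expression filter were higher nearly throughout. Of 21 C-type lectin genes 19 rose and 1 fell (median 2.25; 16 and 1 of the 18 on no list), with the beta-glucan receptor Clec7a at 5.38 ± 0.30 and Clec2h at -4.05 ± 0.39. Of 12 Toll-like receptor genes 11 rose and 1 fell (median 2.19), all 9 Ms4a genes tested rose (median 4.06, Ms4a7 5.05 ± 0.21), and all 4 Fc gamma receptor genes rose (Fcgr3 4.93, Fcgr1 3.78). Of these families, 1 Ms4a and 2 Fc gamma receptor genes are also on lists. The table holds 31 C-type lectin and 14 Ms4a genes, of which 21 and 9 passed the filter. A low gene could pass through the UIR libraries alone, so these counts are partly set by the filter. Ms4a8a, for example, had a mean of 0 FPKM in sham and 1.48 in UIR kidneys. Claudins, which set the tightness of tubular junctions, had 12 of 16 genes higher and 3 lower, beside 60.7% and 20.1% of all genes, and 4 of the 16 are on lists. Cldn3 (3.95), Cldn4 (3.66), Cldn7 (3.22) and Cldn1 (2.78) rose, and the proximal tubule pore Cldn2 (-2.05) and Cldn10 (-1.74) fell. In these 4 families, and in the claudins, median-of-ratios scaling kept the direction of the median. Of 20825 genes in the table, 1682 were under 1 FPKM in each sham kidney and at 1 FPKM or more in each UIR kidney, and 160 showed the reverse. This cut was applied to the values as deposited, where the median log2 fold of all genes tested was 0.53. The counts depend on that offset and were not repeated under other scalings. Igfbp2, a binding protein of insulin-like growth factors, was 0.29, 0.43 and 0.69 FPKM in sham and 53.3, 68.2 and 68.8 in UIR kidneys. Slc22a7, an organic anion transporter, was 38.2, 33.2 and 68.1 in sham and 0.16, 0.14 and 0 in UIR kidneys.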
